A study of Mus musculus with 2 samples.

Results

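The renin-angiotensin system genes described here are 9 genes taken by name: Agt, Ren1, Ace, Agtr1a, Agtr1b, Agtr2, Mas1, Enpep and Mme. Every probe set that the platform annotation gives to 1 of these genes was used, which yielded 10 probe sets for 8 genes among 45037 probe sets for 18194 named genes. No probe set carried Ren1 or Ren2 in the annotation table used here, so renin was not analysed here. RNA came from glomeruli, the filtering tufts of the kidney, of male KK/Ta mice aged 20 weeks on a high-fat diet (HFD, 1 array) or a normal fat chow diet (Chow, 1 array). KK/Ta is an inbred strain prone to obesity and type 2 diabetes, and both groups share it. The design text names 3 mice and the labels do not say how they were spread over or pooled on the arrays. With 1 array per diet, no difference below has a replicate check, and none has a test or a p-value.

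In this hormone system, renin cuts angiotensinogen, the product of Agt, to angiotensin I, and angiotensin-converting enzyme, the product of Ace, turns that into angiotensin II. Angiotensin II acts through the type 1 receptor to constrict vessels and mesangial cells, and it is broken down by membrane peptidases such as aminopeptidase A (Enpep), while neprilysin (Mme) makes angiotensin 1-7, the ligand of the Mas receptor. In the kidney these peptidases sit on podocytes and on the brush border of the proximal tubule, and renin is released by cells of the arteriole at the entry to the glomerulus.

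The glomerular RNA of both diets held very bright signals for the type 1a receptor and aminopeptidase A, signals above the array median for neprilysin and converting enzyme, and signals under it for the type 1b, type 2 and Mas receptors. Of the 10 probe sets, 6 lay above the median of their array on both arrays, 1 (Agt) on the HFD array alone and 3 (Agtr1b, Agtr2 and Mas1) on neither. That median (42.3 for HFD, 44.9 for Chow) served as a floor, and a value under it was raised to it before a difference was taken. Signals of different probe sets depend on probe affinity and are not set against each other. Among the 7 probe sets above the floor, HFD was higher for Agt, for both of Ace and for Agtr1a, lower for both of Mme, and within 0.04 log2 units for Enpep. None of the 6 above the floor on both arrays differed by 1.5-fold or more, and Agt has only a lower bound, which was also smaller. With that bound counted, 0 of the 7 were at least 1.5-fold higher, against 3.66% of the 23419 probe sets above the floor. At least 1.5-fold lower were 0, against 2.58%. At 2-fold the counts were again 0 higher and 0 lower, beside 0.615% and 0.295% of all such probe sets. With no floor, or with the floor at the 30th percentile, the Agt probe set passed 2-fold. The median difference of the 7 was 0.20 log2 units, against 0.038 over all probe sets above the floor, and those of the members ran from -0.29 to 0.57. Without Agt, which has only a bound, the median of the other 6 was 0.12, and over the 7 without centring it was 0.11. Of the 7, 5 were higher and 2 lower, where 56.6% of all 23419 probe sets above the floor were higher. The split was 4 and 3 without centring. It was 3 and 4 when scaled to the Gapdh and beta-actin controls, where 2320 of all 11360 genes above the floor were higher.

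**Figure D1:**
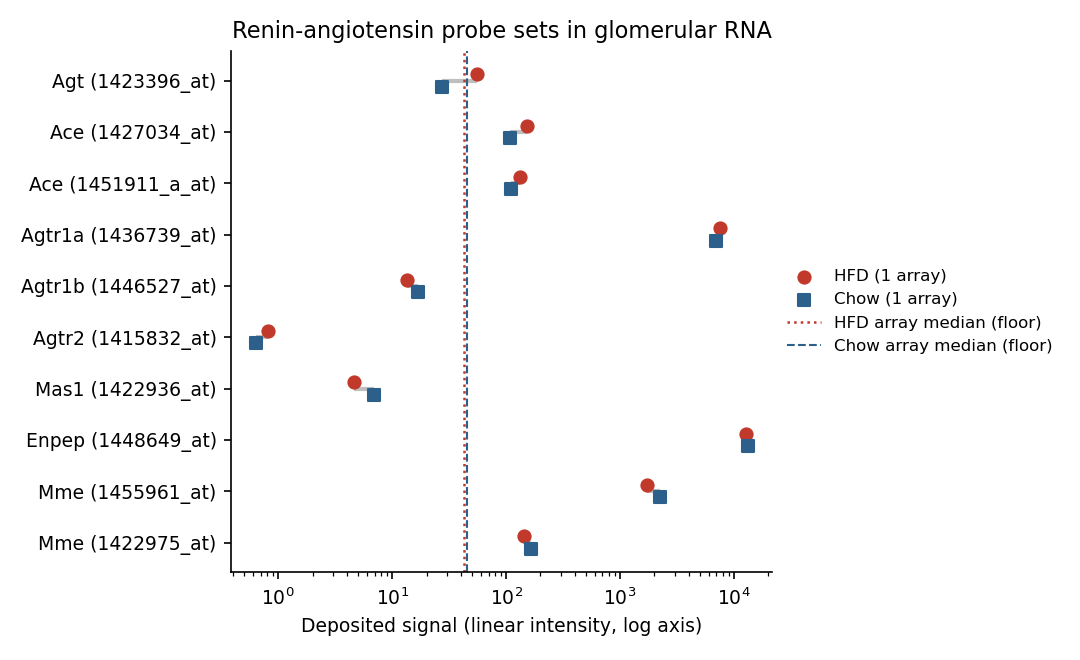
Deposited signal (linear intensity, log axis) of each of the 10 probe sets on the HFD array (circles) and the Chow array (squares), with vertical lines at each array's median, used as the floor. Agtr1a and Enpep lie far to the right of the floor in both diets, Agtr1b, Agtr2 and Mas1 to its left, and only the Agt pair (55.4 in HFD, 27.4 in Chow) straddles it.

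Differences are HFD minus Chow on the log2 scale after each array was centred on its median, a step that added 0.083 to each of them. Beside each stands the scatter, the scaled median absolute deviation of the differences of the 1000 probe sets closest in mean signal. It is taken around the median of those probe sets, whereas each difference is counted from 0. With a smooth fit of the differences on mean signal, Agtr1a moved from 0.20 to 0.15 and Enpep from 0.037 to -0.018. Counts past the scatter can therefore lean to higher values at bright signals. The scatter mixes noise with real differences and is no replicate error. Of the control probe sets on the same arrays, the 6 for Gapdh and beta-actin differed by 0.14 to 0.28, with a median of 0.25, and the 18 for spiked hybridisation RNAs by a median of -0.0011. The ratio of 3′ to 5′ signal was 3.43 (HFD) and 3.59 (Chow) for Gapdh and 1.72 (HFD) and 1.89 (Chow) for beta-actin. Scaled to the Gapdh and beta-actin controls in place of the array median, every difference would be lower by 0.24.

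Agt, which encodes angiotensinogen, the only known precursor of the angiotensins, had the largest ratio of deposited signals among the members. Its probe set (1423396_at) read 55.4 in HFD and 27.4 in Chow, a percentile of 53.8 in HFD and of 42.5 in Chow. The HFD value is just above the floor and the Chow value is below it. Agt was therefore at least 1.31-fold higher in HFD, a bound of 0.39 log2 units. Without the floor, or with a floor at the 30th percentile, the difference was 1.10, the 1 value among the members past 2-fold. The scatter at this dim signal was 0.48, more than at any other member above the floor. In the kidney Agt is made mainly in the proximal tubule, and HFD was higher for 20 of 20 proximal tubule markers, by a median of 0.58 log2 units. The part of tubule RNA in the Agt difference was not tested. In RNA of whole glomeruli a change in the number of cells of a type and a change in RNA per cell cannot be told apart.

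Ace, which makes angiotensin II and also breaks down bradykinin, was measured by a pair of probe sets that went the same way. The first (1427034_at) read 151 in HFD and 108 in Chow, and the second (1451911_a_at) read 133 in HFD and 111 in Chow. Each was higher in HFD. The differences were 0.57 (1.49-fold higher, scatter 0.31) and 0.34 (1.27-fold higher, scatter 0.32), so the first exceeded the scatter of its signal range and the second about equalled it. Without centring they were 0.49 and 0.26. The gap between the pair, 0.23, was smaller than either scatter. Ace is carried by endothelium and by the proximal tubule brush border. Of 12 endothelial markers above the floor 10 were higher in HFD, with a median of 0.20. With the control scaling 5 of 12 were higher (median -0.042), beside 2320 of all 11360 genes above the floor (median -0.18). The proximal tubule median was 0.58, and the part of either list in the Ace differences was not tested.

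The 150 bases before the start of Agt and of Ace are shown because Agt and Ace are the members with the largest differences, and because Ace has 2 annotated starts that its probe sets do not tell apart by name. The windows come from RefSeq on GRCm38.p6 and stand 5′ to 3′ on the strand of the gene: Agt at chr8:124569707-124569856 (minus strand), the upstream start of Ace at chr11:105967798-105967947 (plus strand) and the downstream start, 7241 bases further on, at chr11:105975039-105975188 (plus strand). The upstream start of Ace is known to serve the somatic enzyme and an internal start the testis form. Capitals mark matches, on either strand, to TATAAA or CCAAT.
Agt: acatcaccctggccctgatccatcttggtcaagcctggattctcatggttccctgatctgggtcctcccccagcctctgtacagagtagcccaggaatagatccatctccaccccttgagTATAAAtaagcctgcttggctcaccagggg
Ace, upstream start: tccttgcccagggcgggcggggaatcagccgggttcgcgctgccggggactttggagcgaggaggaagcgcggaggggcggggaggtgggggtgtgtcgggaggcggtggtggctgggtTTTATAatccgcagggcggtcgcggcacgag
Ace, downstream start: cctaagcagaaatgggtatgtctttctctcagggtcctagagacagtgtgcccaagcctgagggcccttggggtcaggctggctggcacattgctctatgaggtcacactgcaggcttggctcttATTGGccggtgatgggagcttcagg
TATAAA lies 30 bases before the start of Agt and, on the opposite strand, 31 bases before the upstream start of Ace, whereas the downstream start of Ace has a CCAAT match on the opposite strand 25 bases before it. TATAAA was found in 7.57% and CCAAT in 24.5% of all 32851 windows of this length, and TGACGTCA, also searched on both strands, in 1.36% of them and in no window of Agt or Ace. These matches are letters in a window, not measured sites, and the arrays do not show which start was used.

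The type 1a angiotensin receptor, Agtr1a, the main receptor for angiotensin II in the rodent kidney, was among the brightest probe sets of both arrays. Its probe set (1436739_at) read 7500 in HFD and 6926 in Chow, at percentiles of 99.4 (HFD) and 99.2 (Chow). The HFD value was higher by 0.20 log2 units (1.15-fold), above the scatter of 0.14 at this signal but below the median of the Gapdh and beta-actin controls. Without centring the difference was 0.11, and scaled to those controls it turned to -0.044. Agtr1a is known from mesangial and arteriolar muscle cells. Of 8 mesangial markers above the floor 5 were higher and 3 lower in HFD, with a median of 0.11. With the control scaling 2 were higher and 6 lower (median -0.13), where 2320 of all 11360 genes above the floor were higher (median -0.18).

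The other 3 receptors were under the floor in both diets, so they have signals and no difference. Agtr1b, the second rodent type 1 receptor gene, is best known from adrenal and pituitary, and its probe set (1446527_at) read 13.5 in HFD and 16.7 in Chow. Agtr2, the type 2 receptor, is abundant in the foetal kidney and scarce in the adult, and its probe set (1415832_at) read 0.815 in HFD and 0.637 in Chow, at percentiles of 3.69 (HFD) and 2.44 (Chow). Mas1, the receptor for angiotensin 1-7, read 4.60 in HFD and 6.96 in Chow (1422936_at). At these signals the scatter of like probe sets was 0.85 for Agtr1b, 1.32 for Agtr2 and 2.08 for Mas1, larger than the unfloored differences of -0.22, 0.44 and -0.51. A diet difference in these receptors was not detectable, and no detection calls, which would separate a low level from none, were used here.

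Enpep, which encodes aminopeptidase A and turns angiotensin II into angiotensin III, had nearly equal signals in the diets. Its probe set (1448649_at) read 12783 in HFD and 13198 in Chow, a percentile of 99.9 on each array. The difference of 0.037 (scatter 0.14) was within the scatter, and its sign followed the scaling: -0.046 without centring and -0.20 when scaled to the Gapdh and beta-actin controls. The highest signals of the arrays were 19489 (HFD) and 19853 (Chow), so the Enpep probe set lies in the uppermost part of the range. Aminopeptidase A is carried by podocytes and by the tubule brush border, whose marker lists stood on opposite sides of 0, with medians of -0.12 for podocytes and 0.58 for the proximal tubule. The part of either in the Enpep signals was not tested.

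Mme, which encodes neprilysin, a peptidase that cleaves angiotensin I, natriuretic peptides and bradykinin, was lower in HFD in both of its probe sets. The brighter (1455961_at) read 1710 in HFD and 2220 in Chow, and the dimmer (1422975_at) read 143 in HFD and 164 in Chow. The differences were -0.29 (1.22-fold lower, scatter 0.17) and -0.12 (1.09-fold lower, scatter 0.30), so the brighter exceeded its scatter and the dimmer did not. The pair lay 0.17 apart. Without centring both were more negative, at -0.38 and -0.20. Under all alternatives tried neither turned positive. The other scalings all lowered both, and the floors left unchanged the differences they kept, so this is no check of the sign. Of 13 podocyte markers above the floor 10 were lower in HFD, with a median of -0.12 (13 of 13 lower without centring, median -0.21), and the part of podocyte RNA in the Mme differences was not tested. Mme is also a brush border enzyme. Of the proximal tubule markers 20 of 20 were higher in HFD (18 without centring), and the part of tubule RNA in the Mme differences was not tested either.

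**Figure D2:**
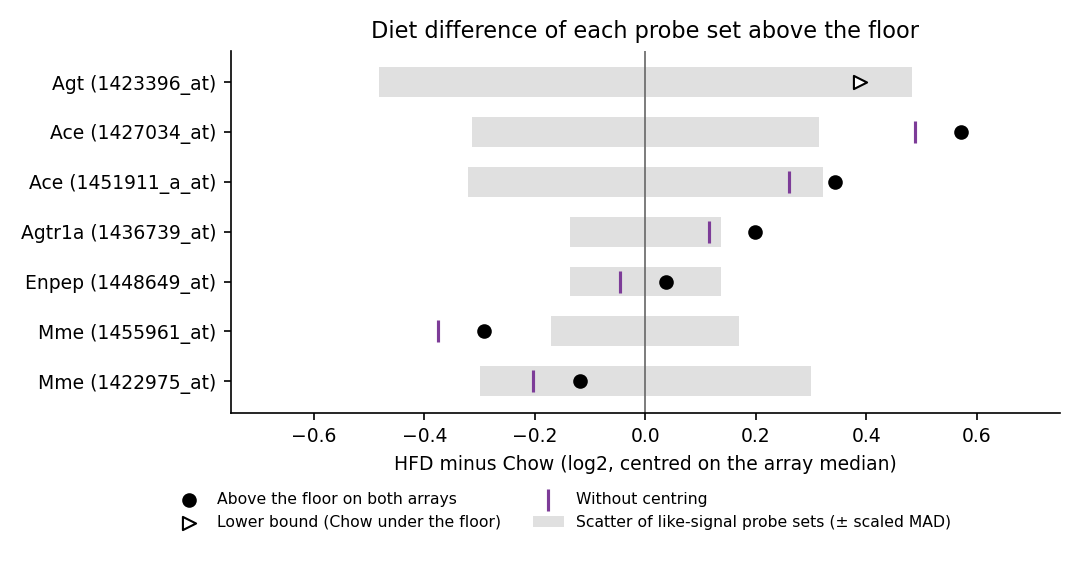
HFD minus Chow log2 difference (points, centred on the array median) of the 7 probe sets above the floor, with the same difference without centring (vertical marks) and the scatter of probe sets of like signal (grey bars); the arrowhead for Agt is a lower bound. Ace 1427034_at (0.57), Agtr1a (0.20) and Mme 1455961_at (-0.29) lie outside their bars, Ace 1451911_a_at (0.34) at the edge of its bar, and Enpep (0.037) crosses 0 without centring.

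The other genes of the pathway were taken from a list of 72 in 7 groups, of which 65 were measured and 55 were above the floor, each gene by its brightest probe set. Counted from 0, 32 of the 55 differed by no more than the scatter of like signals, 17 were higher by more and 6 lower by more. The same share over all genes is not given here, so these counts cannot be read as a trait of the pathway. Of 30 of these genes with several probe sets above the floor on at least 1 array, 14 had probe sets of both signs, so their direction depends on the probe set taken. Some of the negative values were close to 0, as for Rcan1 (-0.0010 and 0.25). How often this occurs over all genes is not given here either. Of the 55, 37 were higher and 18 lower in HFD, with a median of 0.14 against 0.064 over all 11360 genes above the floor, of which 7070 were higher. Without centring the split was 30 higher and 25 lower, and with the control scaling 13 higher and 42 lower, where 2320 of all 11360 genes were higher. The median over all genes was then -0.18. Group and marker splits given with that scaling, above or below, are to be read beside this share. At least 1.5-fold higher were 6 of 55 and at least 1.5-fold lower 1, beside 4.23% and 1.42% of all genes, and none reached 2-fold (0.731% higher and 0.158% lower over all genes).

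Of the peptidases that clear angiotensins, Enpep and Mme aside, 6 of 6 above the floor had a higher value in HFD by 0.14 to 0.46 (median 0.19), but 5 of the 6 differences were within the scatter of like signals and Prcp alone exceeded it. Without centring 6 of 6 were higher, and with the control scaling 1 of 6 was (median -0.055). Prcp, a carboxypeptidase that converts angiotensin II to angiotensin 1-7, read 210 in HFD and 162 in Chow (0.46), and a second probe set read 81.5 in HFD and 49.97 in Chow (0.79). Rnpep, aminopeptidase B, differed by 0.21, Nln (neurolysin) by 0.20 and Dpp3 by 0.17. Prep, prolyl endopeptidase, differed by 0.14 in its brighter probe set and by -0.18 in its dimmer one (84.3 in HFD, 101.5 in Chow). Proximal tubule markers, 20 of 20 higher in HFD, moved the same way as this group, and their part was not tested. Anpep, the brush border aminopeptidase N that acts on angiotensin III, was under the floor at 23.3 in HFD and 10.8 in Chow.

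Of the other proteases on the list, the mast cell and neutrophil enzymes were under the floor: Cma1 (11.0 in HFD, 11.2 in Chow), Mcpt4 (0.851 in HFD, 1.09 in Chow), Ctsg (2.33 in HFD, 1.26 in Chow) and Cpa3 (3.72 in HFD, 1.25 in Chow). Ctsd, cathepsin D, a lysosomal protease, read 3290 in HFD and 2945 in Chow, a difference of 0.24. Among receptors and their partners all 4 other genes above the floor lay between 0.015 and 0.15, and all 4 were below 0 with the control scaling. Atp6ap2, the prorenin receptor and a proton pump subunit, read 8395 in HFD and 8348 in Chow (0.091), and Agtrap, which draws the type 1 receptor inside the cell, differed by 0.14. Zbtb16, a transcription factor that binds the type 2 receptor, differed by 0.15, and Mtus1, another partner of that receptor, by 0.015.

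Signalling genes downstream of the type 1 receptor were evenly divided, with 9 of 16 higher, 7 lower and a median of 0.026 (5 higher and 11 lower without centring, 2 higher and 14 lower with the control scaling). Arhgef1, which couples the receptor to contraction of vascular muscle, was the 1 gene of the list past 1.5-fold in the lower direction, at 224 in HFD and 398 in Chow (1.68-fold lower, scatter 0.23). Its second probe set read 76.8 in HFD and 87.2 in Chow (-0.10), so the size was not shared. Rgs5, a pericyte brake on G protein signalling, was higher in each of its 4 probe sets, by 0.37 in the brightest and 0.17 to 0.30 in the others. Gna12, a G protein subunit, differed by -0.28 and Rcan1, a target of calcineurin, by 0.25. The G protein Gnaq (0.046) and Rgs2 (0.026), which dampens receptor signalling, differed in their brightest probe sets by less than their scatter of 0.17 and 0.16, and their other probe sets ran from -0.32 to 0.62 for Gnaq and from -0.76 to 0.19 for Rgs2.

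Renin cell genes and regulators of renin had 7 of 16 genes higher and 9 lower, with a median of -0.043 (3 higher and 13 lower with the control scaling). Ptgs2, the cyclooxygenase whose prostanoids drive renin release, read 110 in HFD and 62.2 in Chow (1.88-fold higher, scatter 0.37), with a second probe set under the floor. Rgs4, a regulator of G protein signalling, read 643 in HFD and 427 in Chow (1.60-fold higher), and its second probe set above the floor 296 in HFD and 230 in Chow (0.44). Nos1, the nitric oxide synthase of the macula densa, stood at the floor, at 42.6 in HFD and 59.9 in Chow (-0.41, scatter 0.43). Gja5, the connexin of renin cells, differed by 0.27 at a dim signal of 74.3 in HFD and 65.3 in Chow. Pde1c, a phosphodiesterase of cyclic nucleotides, was under the floor.

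In the aldosterone arm and kinin group, 5 of 5 genes above the floor had a higher value in HFD (4 without centring, 2 with the control scaling). Counted from 0, Kng1 and Sgk1 exceeded the scatter of like signals, Sgk1 by little (0.17, scatter 0.14), and 3 did not. Tubule markers moved the same way, with proximal and distal medians of 0.58 and 0.64, and their part was not tested. Kng1, the kininogen from which bradykinin is cut, read 574 in HFD and 373 in Chow (1.63-fold higher). Hsd11b2, which shields the mineralocorticoid receptor from cortisol-like hormones in the distal nephron, differed by 0.25, Hsd11b1 by 0.20 and Sgk1, an aldosterone-induced kinase, by 0.17. The receptor itself, Nr3c2, read 225 in HFD and 230.5 in Chow (0.051). Cyp11b2, the aldosterone synthase of the adrenal, and both bradykinin receptors, Bdkrb1 and Bdkrb2, were under the floor in both diets.

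Genes known to follow angiotensin II in glomerular cells had the highest median of the 7 groups, 0.52, with 5 of 6 above the floor higher (4 of 6 and 0.28 with the control scaling). Earlier results of these arrays were known when this group was drawn up. Edn1, endothelin-1, read 372 in HFD and 218 in Chow (1.81-fold higher, scatter 0.23). Nox4, an oxidase of renal cells, read 628 in HFD and 389 in Chow (1.71-fold higher), and its second probe set 154 in HFD and 121 in Chow (0.43). Fn1, fibronectin, read 104 in HFD and 70.2 in Chow (1.57-fold higher). Thbs1, thrombospondin-1, was lower in both of its probe sets, by 0.47 and 0.46 on the log2 scale, at 77.3 in HFD and 113.5 in Chow in the brighter. Tgfb1 differed by 0.40, with a second, dim probe set (32.6 in HFD, 45.3 in Chow) at a bound of -0.013, and Ccn2, connective tissue growth factor, by 0.21 at a signal near the top of the range (18522 in HFD, 16956 in Chow). Ccl2, a chemokine that draws monocytes, was under the floor. These genes answer to many signals and are also made by leukocytes and tubule cells, whose markers were higher in HFD, and their part was not tested.

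**Figure D3:**
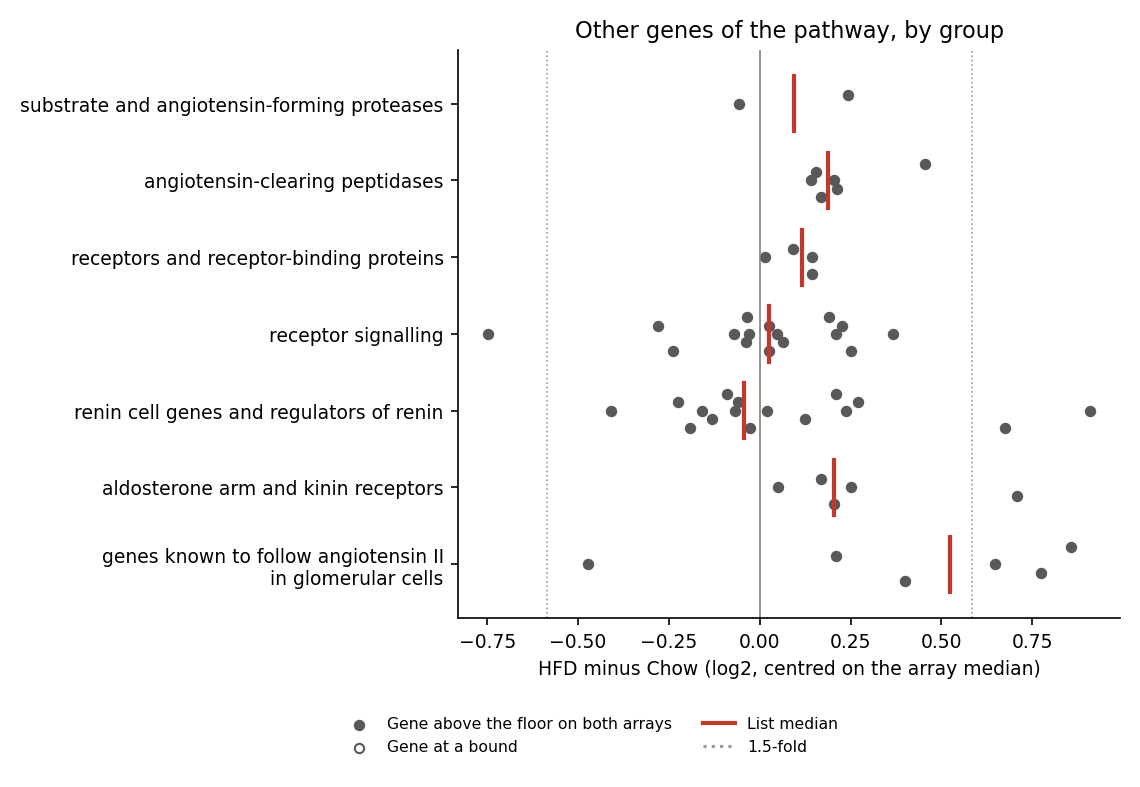
HFD minus Chow log2 difference of each other pathway gene above the floor (points) by group, with the group median (red line) and dotted lines at 1.5-fold in each direction. The clearing peptidases lie between 0.14 and 0.46 (5 of 6 fall below 0 with the control scaling, as do 9040 of all 11360 genes). The signalling and renin cell groups lie on both sides of 0, and the genes known to follow angiotensin II have a median of 0.52 with Thbs1 at -0.47.

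The marker lists show what else the RNA held. Proximal tubule markers summed to a signal of 22234 in HFD and 14886 in Chow over 20 genes, with 20 of 20 higher (16 with the control scaling). The largest differences of that list were those of Slc13a1 (1.81), Slc22a6 (1.21) and Dpep1 (1.003). The second probe set of Slc13a1, far dimmer at 47.9 in HFD and 61.5 in Chow, went the other way (-0.28), and those of Slc22a6 and Dpep1 were higher in HFD. Distal markers, of the loop and the collecting duct as well, summed to 15006 in HFD and 11835 in Chow over 15 genes, with 12 of 13 above the floor higher (10 with the control scaling) and a median of 0.64. Macrophage and myeloid markers summed to 9336 in HFD and 5229 in Chow over 20 genes, with 18 of 19 higher and a median of 1.22. Podocyte markers summed to 88108 in HFD and 98337 in Chow over 13 genes, with 3 higher and 10 lower. Counted from 0, 8 of the 13 were within the scatter of like signals and 5 were lower by more. The largest differences of that list were those of Dach1 (-0.78), Thsd7a (-0.42) and Clic5 (-0.25). Endothelial markers summed to 56933 in HFD and 53486 in Chow over 12. The smooth muscle and renin cell list summed to 13072 in HFD and 10741 in Chow over 7 genes (4 of 6 higher, median 0.19, and 3 of 6 with the control scaling). Akr1b7, its gene for renin cells, was not measured, so the sum is of its smooth muscle genes. Mesangial markers summed to 31566 in HFD and 31146 in Chow over 9, and parietal ones to 4766 in HFD and 5700 in Chow over 6 (median -0.047, which became 0.16 when each gene was taken as the median of its probe sets). No marker had a signal of 0. The defining podocyte genes Nphs1 (5421 in HFD, 5427 in Chow), Podxl and Synpo were bright on both arrays, and the tubule genes Slc34a1 (1259 in HFD, 909 in Chow) and Umod (5000 in HFD, 3742 in Chow) were well above the floor as well. Mast cell markers were nearly all dim, with 6 of 8 under the floor, among them Cma1 and Mcpt4.

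**Figure D4:**
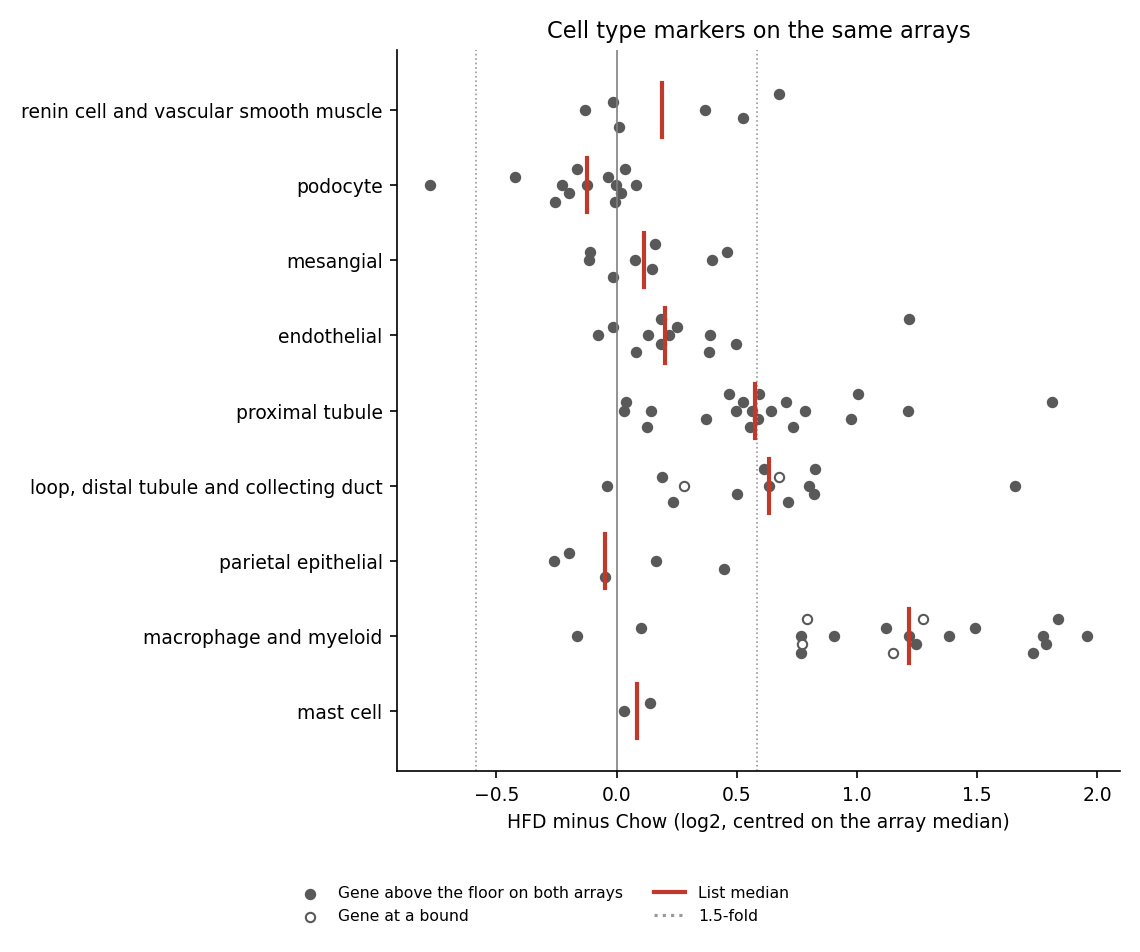
HFD minus Chow log2 difference of each marker gene above the floor (points, open where the value is a bound) by list, with the list median (red line) and dotted lines at 1.5-fold. Tubule lists (proximal and distal medians 0.58 and 0.64) and the myeloid list (1.22) lie to the right, podocyte markers (-0.12) slightly to the left; with the control scaling the tubule and myeloid medians stayed above 0 (0.33, 0.39 and 0.97).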

How the data were processed

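Glomerular RNA was labelled by the Two-cycle method, per the labels' protocols, and hybridised to Affymetrix Mouse Genome 430 2.0 arrays, per the series design text. The deposited intensities are linear, 1 column for each array, with column medians of 42.5 (HFD) and 45.0 (Chow). GeneSpring 7.3.1 is the tool the authors used to compare diets, per the series design text. How probes were summarised and arrays scaled is not stated in those texts. No detection calls or probe-level values were used here. The number of arrays, 1 for each diet, limits precision.

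With pandas 2.3.3 and numpy 2.4.6, signals of all but 64 control probe sets were log2-transformed and centred on their array's median. Values under an array's 50th percentile were raised to it, and a gene above it on 1 array has a bound. The platform annotation, of 2016, gave 1 gene to 34945 probe sets, and several to 932, and 9160 were unnamed here. Counts went by size (1.5-fold and 2-fold). The procedure was tested on simulated data, with differences added only to brighter probe sets above the floor on both arrays. Bounds and signals as dim as those of Agt and Ace were not tried there. By rule the text names every probe set of the 9 genes, up to 4 other pathway genes in each group with the largest difference, and those under the floor, and of marker lists the 3 largest differences and defining genes (here for the proximal tubule and podocyte lists). Prep, Gnaq, Rgs2, Nr3c2, Tgfb1, Ccn2 and Umod were named outside this rule, after their values were seen. Genes, lists and rules were chosen with earlier results of these data known. Promoter windows came from a RefSeq table, which held 8 of the 9 genes. Alternatives were 4 scalings, 3 floors, the 25th percentile added before log2, omission of probe sets open to several transcripts, and a gene's probe set median.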

Additional observations from a re-analysis of the deposited data

How the results depend on the processing

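No paired analysis was possible because each diet has 1 array, and for the same reason no replicate could be left out. Over 9 alternatives, 52 of 58 recomputed differences of the 7 probe sets moved by less than the scatter of like signals and 6 by more. Many of the 52 could not move. The floor settings and the omission of shared probe sets leave a difference unchanged where both signals are above the floor used. The control scaling shifts all differences alike, so it passed the scatter only where the scatter was small. The tally is therefore no measure of robustness. Agt gave 3 of those 6: its difference was 1.10 with no floor and with the floor at the 30th percentile, and 0.89 with the 25th percentile added, so the count at least 1.5-fold higher was 1 in place of 0 under these 3, and the count at least 2-fold higher was 1 in place of 0 under no floor and under the 30th percentile. The other 3 came with scaling to Gapdh and beta-actin, which lowered every difference by 0.24 and put Agtr1a at -0.044, Enpep at -0.20 and Mme 1455961_at at -0.53, while both of Ace stayed positive (0.33 and 0.10). The median of the member probe sets, 0.20, was 0.12 with no floor and with shared probe sets left out, 0.11 without centring, 0.046 with the 25th percentile added, 0.037 with the floor at the 70th percentile, where fewer probe sets are above the floor, and -0.044 with the control scaling. The median over the whole pathway list, members included, was 0.14 and became -0.10 with the control scaling. The cause of the shift of the Gapdh and beta-actin controls was not tested. Of the 7 pathway groups, all but the genes known to follow angiotensin II had a median below 0 with the control scaling. The median over all 11360 genes above the floor was then -0.18. Only the signalling (-0.22) and renin cell (-0.28) groups lay below that value. At dim signals, as for Agtr2 and Mas1, signal over background limits what can be seen.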

Other observations

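Of the 14 pathway genes whose probe sets differed in sign, Klk1 and Rcan1 are given here, chosen after their values were seen. Klk1, tissue kallikrein, which cuts kinins from kininogen, was lower in HFD in its brightest probe set (1092 in HFD, 1203 in Chow, -0.057) and higher in its other 3, by 0.18, 0.19 and 0.35. The kallikrein family has many near-identical members, and 3 of the 4 probe sets carry the suffix for possible matches to several transcripts. Rcan1 differed by 0.25 in the brighter probe set (1972 in HFD, 1755 in Chow) and by -0.0010 in the dimmer (81.6 in HFD, 86.5 in Chow).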
